A study of Drosophila melanogaster with 2 samples.

Results

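3LHet is the heterochromatic sequence of the dm3 genome that was assigned to the left arm of chromosome 3 but not joined to it. The H3T3ph enriched regions studied here were all rows of the deposited list that lie on 3LHet, 668 of 6387 regions. H3T3ph is histone H3 phosphorylated at threonine 3. The data came from S2 cells, a cultured line of *Drosophila melanogaster*, grown without treatment, with 1 library of DNA immunoprecipitated with an antibody against H3T3ph (IP) and 1 library of input DNA. The list gives read counts and RPKM (reads per kb of region, scaled to library size), which together place the IP library at 21013056 reads and the input library at 23747069. With 1 library of each kind there is no replicate, and no test for significance was made. The intervals given are 95% intervals that cover counting error only. The authors removed over-amplified reads, but without molecular identifiers the remaining PCR copies cannot be recognized.

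Haspin is the kinase that phosphorylates H3 at threonine 3. In mammals and yeast the mark is best known from mitosis, when it gathers near centromeres. There it helps to recruit the chromosomal passenger complex, which carries the Aurora B kinase. The paper states that its ChIP-seq cannot tell whether the mark in heterochromatin comes from mitotic cells only or from interphase cells too. Pericentromeric heterochromatin such as 3LHet is rich in transposon remnants and satellite repeats, holds few genes and is bound by HP1a, the protein that reads methylated lysine 9 of H3. Reads that could be placed at more than 1 position were left out when the data were aligned, so that repeats with identical copies are not seen in the list.

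Enriched regions ran along 3LHet from 12243 to the end of the last region at 2546139, which was taken as the length of the scaffold. They covered 530.9 kb, or 20.8% of it, at 262.4 regions per Mb (exact Poisson interval from 242.8 to 283.0, which treats regions as independent, although neighbors are not). The first region, from 12243 to 13209, held 277 IP and 210 input reads, with an IP to input ratio of 1.49 (interval from 1.24 to 1.79). The last one, from 2543488 to 2546139, held 874 IP and 581 input reads, with a ratio of 1.70 (interval from 1.53 to 1.89). In all ratios the reads are scaled to the total of their library.

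The regions of 3LHet ranged in width from 1 to 13547 bp around a median of 426.5 bp, and the quartiles were 194 and 973 bp. A small number of wide regions made up most of the covered length. The 96 widest regions, 14.4% of the 668, held as much of it as all the others together, and the 100 regions over 1600 bp held 51.5%. At the other end, 21 regions were at most 50 bp wide and together covered 0.629 kb.

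Pooled over all regions of 3LHet, 197938 IP reads and 133677 input reads gave an IP to input ratio of 1.67 (exact interval from 1.66 to 1.69). For the 658 regions with input reads, the median ratio was 1.85, with quartiles of 1.66 and 2.29. The ratio fell with width (Spearman's rho = -0.79 over these 658 regions, a description, as narrow regions also have few reads). The rule of the list asks for this order, because a region with few reads passes only with a large ratio. The lowest ratio on 3LHet was 4.52 among the 31 regions with 10 to 20 IP reads, and 1.18 among the 35 regions with more than 1000 IP reads. Ratios are therefore also compared below between regions of similar width, while those of bins, runs and whole sequences pool all widths.

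By the deposited p-value, used here only to rank the list, 415 of the 668 regions lay in its better part (62.1%, Wilson interval from 58.4 to 65.7%), against 50.5% of all 6387 regions. This share was not particular to 3LHet. It was 59.91% on 3RHet (532 of 888 regions) and 59.96% on proximal 3L (286 of 477), both within the interval of 3LHet. A ratio of at least 2 was reached by 255 of the 658 regions with input reads (38.8%), against 45.2% of such regions in the whole list. The share was 69.3% on 3RHet and 24.1% on proximal 3L. No input read was found in 10 regions of 3LHet (1.50%), against 4.13% of the list, 0.901% on 3RHet and 0.839% on proximal 3L. These 10 regions were between 1 and 44 bp wide and had between 10 and 15 IP reads.

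Coverage rose and fell several times along the scaffold, as seen in bins of 100 kb. The highest covered share was found from 200001 to 300000, where 35 regions with a median width of 1227 bp covered 50.7%. The next were the bins from 900001 to 1000000 with 35.5% and from 800001 to 900000 with 35.2%. The lowest share was 1.99%, from 2300001 to 2400000, with 6 regions. In the first bins of the scaffold, from 1 to 100000 and from 100001 to 200000, it was 4.13% and 4.30%, with 10 regions each. Over the 25 full bins the median was 21.7% and the quartiles were 9.62 and 28.0%.

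**Figure D1:**
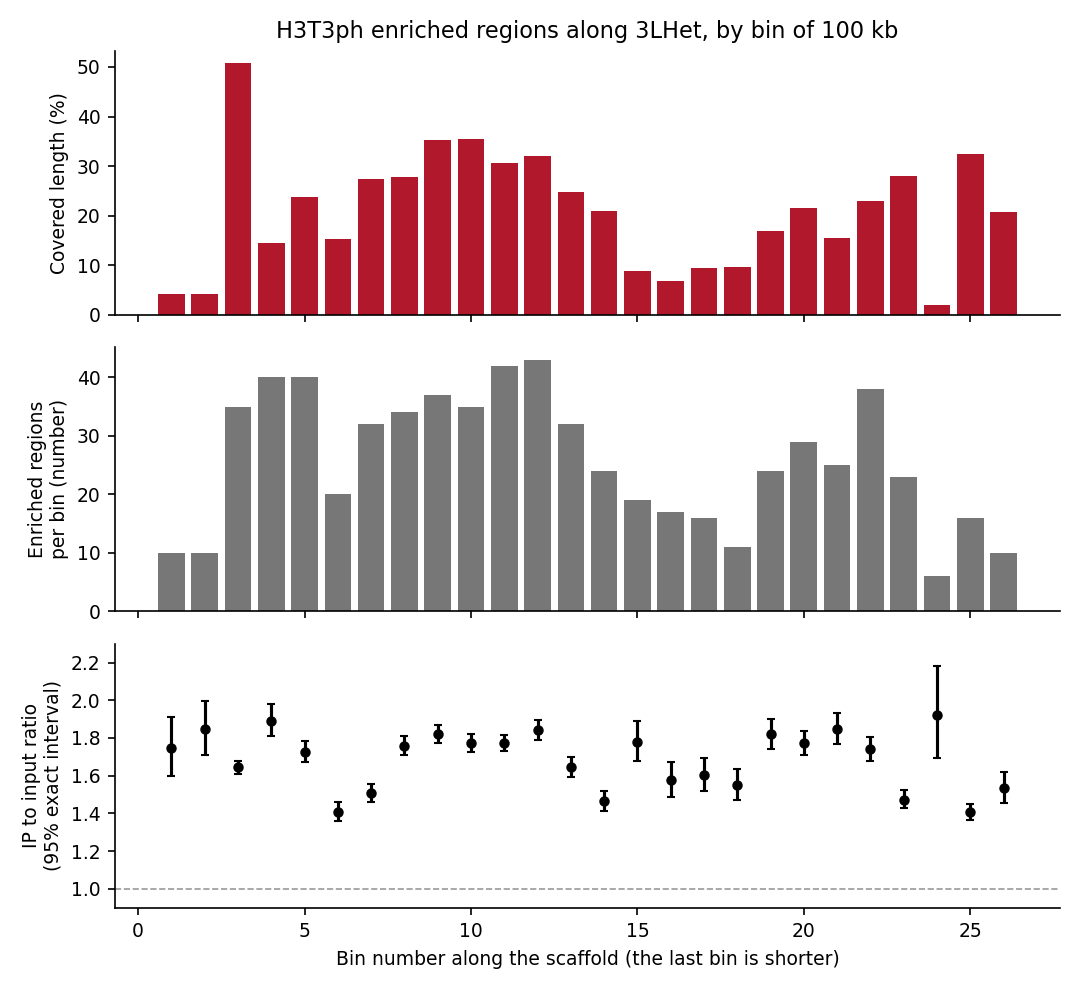
Enriched regions along 3LHet in bins of 100 kb, counted from the start of the scaffold, with the last bin shorter. The panels give the covered length in percent, the number of regions and the pooled IP to input ratio with its 95% exact interval. Coverage reaches 50.7% in bin 3, lies between 6.81 and 9.62% from bin 15 to bin 18 and is lowest in bin 24 at 1.99%. The ratio, which includes listed regions only, stays between 1.41 and 1.92.

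In segments of 500 kb, coverage was 19.5% from 0 to 0.5 Mb, 28.2% from 0.5 to 1 Mb and 23.4% from 1 to 1.5 Mb. It was 12.9% from 1.5 to 2 Mb and 20.2% from 2 to 2.5 Mb. The low segment from 1.5 to 2 Mb had fewer regions (97, against 135, 158, 160 and 108 in the other full segments) and not narrower ones, the median width being 460 bp against 393, 405, 374 and 550.5 bp. Number and coverage thus went together in general (rho = 0.68 over the 25 full bins), but not in every bin. From 300001 to 400000, 40 regions covered 14.5%, with a median width of 356 bp. In the bin before it, 35 regions covered 50.7%, with a median of 1227 bp. The bin from 2400001 to 2500000 had 16 regions that covered 32.4%, with a median width of 1477 bp, while 38 regions from 2100001 to 2200000 covered 23.0%, with a median of 416.5 bp.

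Only listed regions enter the IP to input ratio, and the rule of the list keeps it above 1. Within this limit it varied much less than coverage. By bin it lay between 1.41 and 1.92 with a median of 1.75, and it showed little relation to the covered share (rho = -0.18 over 25 bins). A bin of low coverage, from 2300001 to 2400000, had a high ratio of 1.92 (interval from 1.69 to 2.18). One of high coverage, from 2400001 to 2500000, had a low ratio of 1.41 (interval from 1.37 to 1.45). Widths differed between these bins as well, with medians of 300 bp (6 regions) and 1477 bp (16 regions). The list asks for a larger ratio in regions with few reads, so width and coverage cannot be told apart in this contrast. Over the 25 full bins, median width and ratio had a rho of -0.37. Among regions over 1600 bp, the last full segment stood below the others. The ratio was 1.44 from 2 to 2.5 Mb (22 regions, interval from 1.41 to 1.48), and 1.62, 1.62, 1.65 and 1.599 in the segments before it, none with an interval reaching below 1.54. In regions of 401 to 800 bp this order was not seen, with 1.80 from 2 to 2.5 Mb and between 1.71 and 1.81 before it. In regions of 801 to 1600 bp the ratio from 2 to 2.5 Mb was 1.5995 (interval from 1.54 to 1.66), and between 1.63 and 1.68 before it, with overlapping intervals. Over all regions the depth of the IP was lower in this segment, at 14.8 RPKM, against 18.7, 18.6, 19.5 and 16.2 RPKM in the segments before it. The input was 9.41 RPKM, against 10.96, 11.0, 11.3 and 9.58 RPKM. The segment from 1.5 to 2 Mb thus had nearly the same input, with a ratio of 1.70 over all its regions against 1.57 from 2 to 2.5 Mb.

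Neighboring regions were often separated by very little sequence. Of the 667 gaps between neighbors on 3LHet, 47 were at most 10 bp, 193 at most 100 bp (28.9%) and 344 at most 500 bp (51.6%). The median gap was 462 bp and the quartiles were 55.5 and 2158.5 bp. Many listed regions thus followed each other almost without a break.

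A run was defined as at least 3 regions in which neighbors were at most 500 bp apart. By this definition 3LHet had 78 runs, with 355 of its regions (53.1%), and the runs spanned 370.8 kb, or 14.6% of the scaffold. Enriched regions covered 90.1% of the sequence inside the runs, and the runs held 62.9% of all covered length. Their median span was 3533.5 bp. The span reached 5 kb in 24 runs and 10 kb in 6 runs. The ratio of each of the 78 runs had an interval above 1, which the choice of listed regions sets.

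The 5 longest runs were each covered to at least 94.8%. The longest, from 591242 to 610749, spanned 19.5 kb with 6 regions. The next, from 1134711 to 1154192, spanned 19.5 kb as well, with 10 regions. Its ratio was 1.84 (interval from 1.77 to 1.91), and it begins with the widest region of the scaffold. That region, from 1134711 to 1148257, was 13547 bp wide and had 5968 IP and 3605 input reads, a ratio of 1.87 (interval from 1.79 to 1.95). The third and the fourth run lie side by side in the bin of highest coverage, from 202584 to 221890 with 7 regions and a ratio of 1.68, and from 222770 to 238522 with 10 regions and a ratio of 1.66. When neighbors could be up to 1000 bp apart, these runs and the one from 239469 to 246699 joined into 1 run of 44.1 kb. It reached from 202584 to 246699, and its 20 regions covered 90.5% (ratio 1.65, interval from 1.61 to 1.69). The fifth run, from 715402 to 727995, spanned 12.6 kb with a ratio of 1.71.

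Inside runs the ratio was 1.70, and outside them it was 1.63. Within classes of width the difference was widest above 1600 bp. There the ratio was 1.65 for 65 regions in runs and 1.46 for 35 regions outside them, so that the first was 1.13 times the second (interval from 1.10 to 1.15). For regions of 201 to 400 bp the same quotient was 1.07 (interval from 1.01 to 1.12). For those of 401 to 800 bp it was 1.04 (interval from 0.999 to 1.07), for 801 to 1600 bp it was 1.01 (interval from 0.982 to 1.05), and for 51 to 200 bp it was 0.973 (interval from 0.891 to 1.06), so that in these classes it could not be told from 1 at this depth. Above 1600 bp, most of the 22 regions from 2 to 2.5 Mb, where the ratio was 1.44, lie outside runs. The quotients were not computed with position along the scaffold held fixed.

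The longest run stood apart from the other runs by its low ratio. Pooled over its 6 regions, 7135 IP and 6544 input reads gave 1.23 (interval from 1.19 to 1.27), while the other 23 runs of at least 5 kb had ratios from 1.43 to 1.96. Its 3 wide middle regions had the lowest values. The first of them, from 592610 to 602333, had 3753 IP and 3482 input reads and thus a ratio of 1.22. In the second, from 602382 to 607088, 1641 IP reads stood against 1578 input reads, a ratio of 1.18. The third, from 607096 to 609345, had a ratio of 1.19, with 880 against 837 reads. The regions at its edges were higher, with 1.83 at the left end, from 591242 to 591537, and 1.41 at the right end, from 609749 to 610749. The low ratio went with a high input. The input RPKM of the run was 14.5, against 10.6 over all regions of 3LHet, while its IP RPKM of 17.9 was near the 17.7 of the scaffold. A similar region was found from 1395667 to 1398316, with 967 IP and 918 input reads, an input RPKM of 14.6 and a ratio of 1.19. A high input did not always go with a low ratio. The third longest run, from 202584 to 221890, had an input of 14.0 RPKM, an IP of 23.6 RPKM and a ratio of 1.68. Without the longest run the pooled ratio of 3LHet was 1.70.

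**Figure D2:**
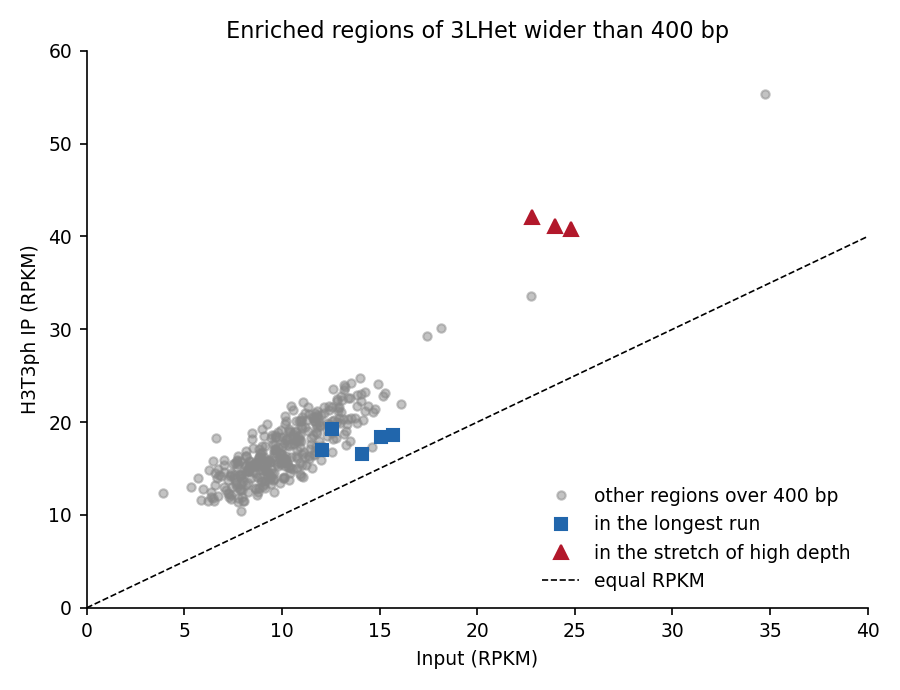
IP RPKM against input RPKM for the 352 regions of 3LHet wider than 400 bp with input reads, each point 1 region, with the dashed line at equal values. Regions of the longest run (squares) lie nearer to the dashed line than most others, with a pooled ratio of 1.23 over the whole run, while those of the stretch from 1077780 to 1094405 (triangles) have high values in both libraries and a pooled ratio of 1.72 over all regions of the stretch.

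Across the 352 regions wider than 400 bp, IP and input RPKM rose together (rho = 0.81, a description of regions that share the 2 libraries). A stretch from 1077780 to 1094405, singled out after its values had been seen, was high in both libraries. Its 5 regions covered 43.1% of 16.6 kb with 40.8 RPKM in the IP and 23.7 RPKM in the input. It has 3 wide regions. One lies at 1077780 to 1078931, with 1019 IP against 624 input reads, another at 1084755 to 1086293, with 1318 against 906 reads, and the last at 1090258 to 1094405, with 3585 against 2364 reads. Despite this depth their ratios of 1.85, 1.64 and 1.71 were close to the median of 1.69 of all regions wider than 400 bp. The highest depth of a region of at least 400 bp was found near the end of the scaffold, from 2540076 to 2540623, with 55.3 RPKM in the IP and 34.7 RPKM in the input. Its ratio was 1.59 (interval from 1.41 to 1.80). Number of copies of these sequences in S2 cells was not analysed here.

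A ratio of at least 2 was found in 34 of the 352 regions wider than 400 bp (9.66%). The same share was 39.9% of 296 regions on 3RHet and 2.97% of 337 regions on proximal 3L. It is not given here for the whole list. Among regions of at least 400 bp the highest ratio was 3.15 (interval from 2.16 to 4.70), at 557328 to 557735, where 106 IP reads stood against 38 input reads. The second and the third lie within 2 kb of each other, at 388773 to 389180 with 2.77 (157 against 64 reads) and at 389941 to 390390 with 2.46 (150 against 69 reads). The fourth and the fifth both had 2.44, at 2196083 to 2196494 (121 against 56 reads) and at 486412 to 486914 (138 against 64 reads). Their intervals all overlap. The input RPKM of these 5 regions was between 3.92 and 6.61, below the lower quartile of 8.61 of the regions wider than 400 bp. A choice by ratio favors regions of low input, so these values describe the 5 regions only.

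The widest regions followed the same pattern. After the region of 13547 bp, the next in width was the one from 592610 to 602333 in the longest run. It was followed by the region at 720141 to 727391, where 3113 IP against 1999 input reads gave a ratio of 1.76. The next were at 909684 to 914916, with a ratio of 1.69 (2179 against 1460 reads), and at 205675 to 210809, with 1.59 (2401 against 1711 reads). Among the 100 regions over 1600 bp the ratio had a median of 1.61 and ran from 1.18 to 2.02. In the 6 with a ratio below 1.3 the median input RPKM was 14.4, and in the 51 with a ratio of 1.6 or more it was 10.7. The median IP RPKM of the same groups was 17.0 and 18.9. Input in the 6 ran from 11.0 to 15.7 RPKM, and they include the wide middle regions of the longest run. The regions at 2253305 to 2256125 and at 2476054 to 2477732, also among the 6, had an input of only 11.0 and 11.1 RPKM. Their IP was 14.2 and 14.1 RPKM. Both groups were set by the ratio itself, so the values describe them only.

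Gaps of at least 20 kb without an enriched region were found 17 times on 3LHet, and together they made up 711.7 kb, or 28.0% of the scaffold. The longest was 151.1 kb, from 21242 to 172317, and takes up most of the first bins of the scaffold, which had low coverage. The second, of 97.95 kb from 2285769 to 2383718, takes up most of the bin of lowest coverage. The others among the 5 longest were 56.2 kb from 494963 to 551193, 50.6 kb from 1443257 to 1493848, and 35.8 kb from 2047054 to 2082899. Outside the 17 gaps, 28.9% of the sequence was covered, with 364.1 regions per Mb. The dm3 sequence was not used here, so unknown bases and repeats without a single placement cannot be told apart from sequence without enrichment.

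Long gaps and runs could lie close together. The gap from 494963 begins where a run of 9.56 kb ends, from 485400 to 494962, in which 10 regions covered 93.9% with a ratio of 1.89. Likewise, a gap of 30.3 kb from 950605 to 980937 follows at once on the run from 939426 to 950604, which spans 11.2 kb with 4 regions and has a ratio of 1.72.

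**Figure D3:**
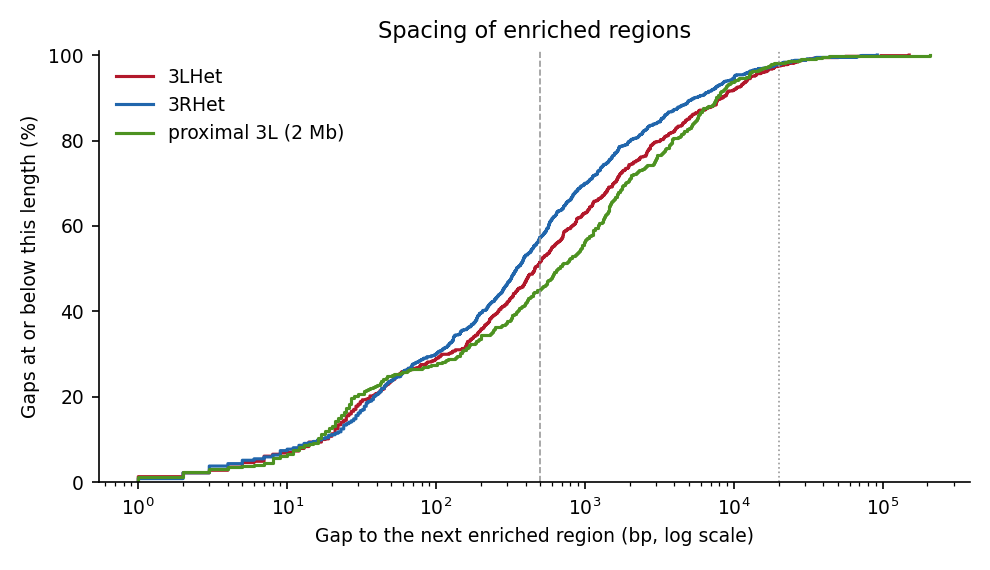
Share of gaps between neighboring enriched regions that are at or below a given length, on a log scale, for 3LHet (667 gaps), 3RHet (887) and the 2 Mb of 3L next to the centromere (476). Dashed and dotted lines mark 500 bp and 20 kb. The median gap is 462 bp on 3LHet, 349 bp on 3RHet and 652.5 bp on proximal 3L, and the curves lie close together below 100 bp.

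3LHet was then compared with 3RHet, the corresponding sequence of the right arm, and with the 2 Mb of 3L next to the centromere (proximal 3L). The order of the sequences depended on whether regions were counted or their covered length was used. On 3RHet there were 888 regions, or 355.6 per Mb (interval from 332.6 to 379.8), so that 3LHet had 0.738 times this density. Regions on 3RHet were narrower, with a median of 264.5 bp, and covered 17.9% of its length, so that 3LHet had 1.16 times its covered share. Proximal 3L had 477 regions, 238.5 per Mb (interval from 217.6 to 260.9), with a median width of 765 bp, and they covered 26.8%. Against it 3LHet had 1.10 times the density, with overlapping intervals, and 0.778 times the covered share. With a proximal part of 1 Mb the density of 3LHet was 1.01 times that of 3L. When regions narrower than the median of the list were left out, both orders of density turned, to 1.14 times 3RHet and 0.838 times proximal 3L.

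Single bins of 100 kb varied widely in covered share in each sequence. The quartiles of the bins were 9.62 and 28.0% on 3LHet, 11.6 and 22.8% on 3RHet, and 19.1 and 32.3% on proximal 3L. With a proximal part of 3 Mb both values were higher on 3LHet, which had 1.52 times the density and 1.10 times the covered share of 3L.

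Gaps of at most 100 bp had nearly the same share in all 3 sequences, 28.9% on 3LHet, 30.0% on 3RHet and 27.5% on proximal 3L. Runs held 61.7% of the regions on 3RHet and 45.5% on proximal 3L, with 53.1% on 3LHet between them. The median span of a run was 3533.5 bp on 3LHet, 2136 bp on 3RHet and 3794.5 bp on proximal 3L, and the longest was 19.5, 13.5 and 16.1 kb. Regions covered 90.1, 82.2 and 93.5% of the sequence inside runs. Gaps of at least 20 kb took up 28.0, 30.9 and 22.8% of the length.

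**Figure D4:**
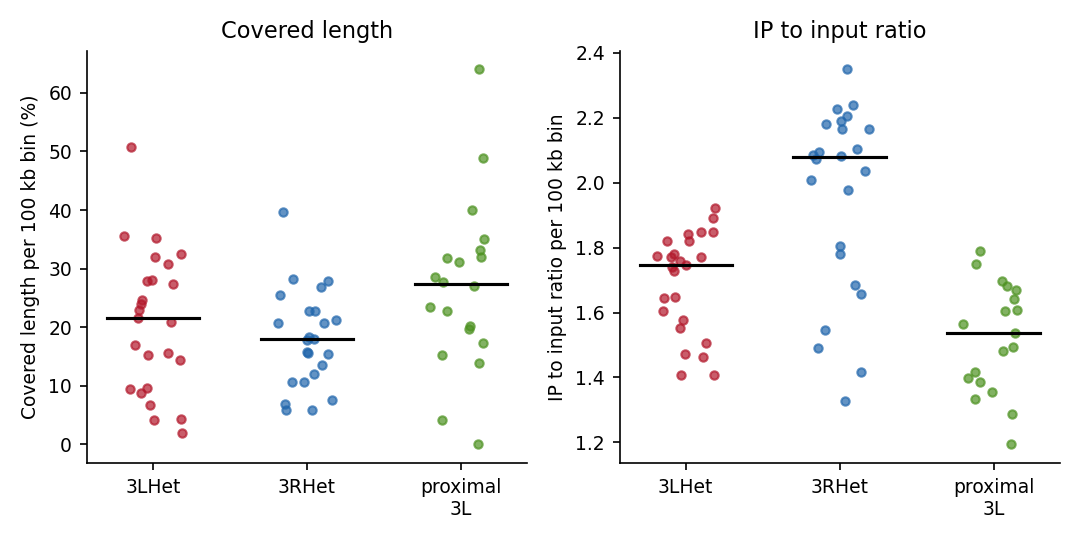
Covered length (left, percent) and pooled IP to input ratio (right) of each full bin of 100 kb on 3LHet (25 bins), 3RHet (24 bins) and proximal 3L (20 bins, 1 of them without a region and so without a ratio), with the median as a line. Covered lengths overlap widely, while 15 of the 24 bins of 3RHet have a ratio of 2 or more, and no bin of 3LHet or of proximal 3L does.

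The IP to input ratio of 3LHet lay between those of the other sequences. Pooled over all regions it was 1.67 on 3LHet, 1.94 on 3RHet (interval from 1.92 to 1.95) and 1.51 on proximal 3L (interval from 1.49 to 1.52). Hence the ratio of 3LHet was 0.863 times that of 3RHet (interval from 0.854 to 0.872) and 1.11 times that of proximal 3L (interval from 1.10 to 1.12). With a proximal part of 1 Mb the latter quotient was smaller, at 1.05 (interval from 1.04 to 1.07). With 3 and 4 Mb it was 1.11 and 1.12. Single bins of proximal 3L had ratios from 1.19 to 1.79. Against 3RHet the difference held in each class of width over 50 bp, with quotients from 0.869 to 0.924 and intervals below 1. For regions over 1600 bp the ratios were 1.59 on 3LHet and 1.79 on 3RHet. Against proximal 3L it held in the classes over 400 bp, and was widest above 1600 bp, with 1.43 on proximal 3L and a quotient of 1.11 (interval from 1.10 to 1.13). In narrower regions it did not. The quotient was 0.964 (interval from 0.918 to 1.01) for 201 to 400 bp, and 0.909 (interval from 0.832 to 0.992) for 51 to 200 bp.

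**Figure D5:**
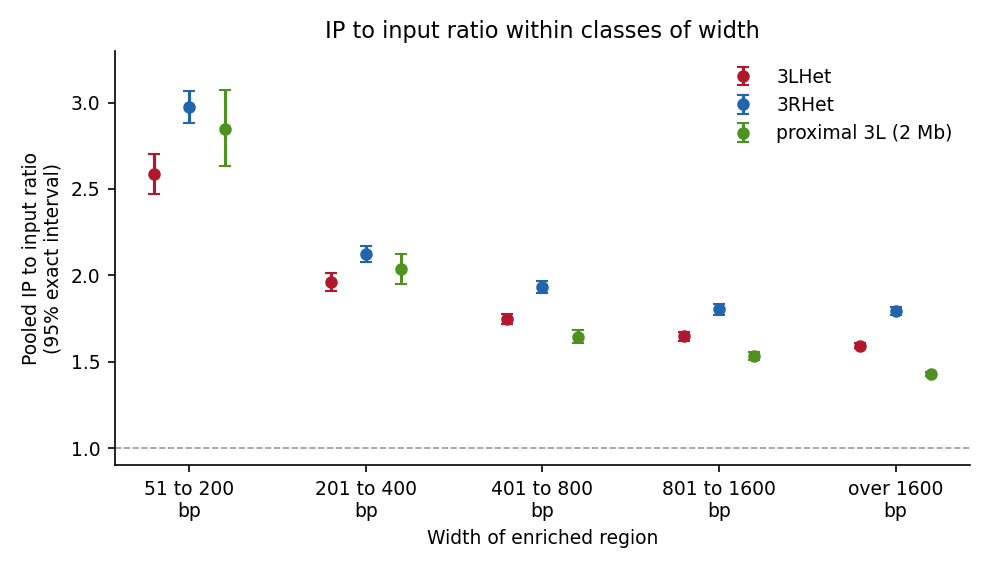
Pooled IP to input ratio of enriched regions by class of width for 3LHet, 3RHet and the 2 Mb of proximal 3L, with 95% exact intervals on the reads and a dashed line at 1. Above 1600 bp the values are 1.59, 1.79 and 1.43, and regions of at most 50 bp, which are 21, 35 and 9 in number, are not drawn.

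The difference from 3RHet went with the input. In regions wider than 400 bp the median IP RPKM was 16.6 on 3LHet and 16.0 on 3RHet, and the median input RPKM was 10.1 and 8.63. So the IP was not lower on 3LHet, and the input was higher. On proximal 3L the IP was the lower one, with a median of 14.2 RPKM, and the input was 9.21 RPKM. Whether the number of copies or the share of sequence with a single placement differs between these sequences was not tested.

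The comparison with 3RHet also depended on the part of 3RHet that was used, a split made after its bins had been seen. Up to 1.6 Mb the bins of 3RHet had ratios from 1.98 to 2.35, all above the highest bin of 3LHet at 1.92. Beyond 1.6 Mb they had ratios from 1.23 to 1.80, within the values of 3LHet or below them. Pooled over all widths, the ratio of 3LHet was 0.786 times that of the first part and 1.07 times that of the second (interval from 1.06 to 1.09). Within classes of width 3LHet exceeded the second part only above 800 bp, by 1.09 times for 801 to 1600 bp (interval from 1.06 to 1.13) and 1.10 times above 1600 bp (interval from 1.07 to 1.12). The quotient was 1.02 (interval from 0.975 to 1.06) for 401 to 800 bp, 1.004 (interval from 0.943 to 1.07) for 201 to 400 bp and 0.916 (interval from 0.823 to 1.02) for 51 to 200 bp. Against the first part it was below 1, with its interval, in each of these classes.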

How the data were processed

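H3T3ph ChIP-seq of S2 cells consisted of 1 IP and 1 input library, amplified in 18 PCR cycles from 8.5 ng and read as single ends of 50 nt. Bowtie 0.12.5 was used by the authors to align to dm3, with single placements and up to 2 mismatches. Over-amplified reads were taken out, the shift between strands was corrected, and regions with at least 10 reads were tested against the input in htSeqTools. The deposited list gives raw read counts, RPKM and a Benjamini-Hochberg p-value for each region, all computed by the authors. The list has no header. Of each pair of columns the one with the higher RPKM, the same in 6387 of 6387 regions, was taken as the IP. The deposited p-value served only to rank regions, with its median as the limit of the better part.

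Regions were selected by sequence name. Coordinates count from 1. Reads were assigned by the midpoint of a region, and covered bases were divided over bins. Computation was in Python 3.11.15 (scipy 1.17.1, numpy 2.4.6, pandas 2.3.3) and plots in matplotlib 3.10.9. Intervals are Clopper-Pearson for ratios, Poisson for densities, Wilson for shares, and on the log scale for quotients of ratios. Regions were named by rule (first, last, widest, highest ratio, longest runs and gaps, extreme bins), and others are said to be chosen after their values were seen. Sequences, limits and definitions were chosen with earlier results of these data known. Alternatives were other lists of regions, bin sizes, run and gap limits and lengths of proximal 3L. The code was tested on simulated regions. No gene is named and no sequence is printed, since no dm3 annotation or genome was used here.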

Additional observations from a re-analysis of the deposited data

How the results depend on the processing

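No paired analysis was possible because there was 1 library of each kind. Of 80 values computed under alternatives for 3LHet and its comparisons, 58 stayed within the limits set for them. For counts, densities, covered shares and their quotients this means within 1.5 times, and for the pooled ratio within the exact interval. All quotients also had to stay on the same side of 1, with no limit of closeness for quotients of IP to input ratios. The list of regions with at least 1 input read left out only 10 of the 668 regions of 3LHet. Its values could therefore hardly move. Density on 3LHet was 163.0 regions per Mb when only regions ranked in its better part by p-value were kept, 144.1 without regions narrower than the median and 127.3 with regions up to 500 bp apart joined. The number of runs was 48, 38 and 31 with the first of these, with the second and with at least 5 regions per run, and that of long gaps was 28 and 29 with the first and the second. There were 55 gaps of at least 10 kb and 4 of at least 50 kb. The pooled ratio was 1.63 with the wider regions, 1.85 as a median over regions and 1.70 without the longest run. The most covered bin of 50 kb reached 81.2%. Density turned to 1.14 times 3RHet and 0.838 times proximal 3L with the wider regions, and to 0.971 times proximal 3L after joining. With 4 Mb of proximal 3L the density was 1.95 and the covered share 1.399 times that of 3L, and with 3 Mb the covered share was 1.10 times. Against 3RHet beyond 1.6 Mb, density was 1.49 and the ratio 1.07 times as high. Alternatives on the comparisons other than the length of proximal 3L and of the scaffolds, and those of the longest run, of 3RHet and of other lists of regions for the most covered bin, were added after the data had been seen. The causes of these changes were not tested, except that a narrower list holds fewer regions by construction.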
